A study of Mus musculus with 60 samples.

Results

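Immediate early genes are transcribed within minutes of a stimulus, without a need for new protein. In most cells their promoters and enhancers are driven by growth factor signalling through ERK kinases, SRF and its cofactors, and by cAMP signalling through CREB. Their products are mostly short-lived transcription factors. They were followed here as 10 named genes: the AP-1 subunits Fos, Fosb, Jun and Junb, the AP-1 partner and stress-response factor Atf3, the zinc finger factors Egr1, Egr2 and Egr3, the orphan nuclear receptor Nr4a1, and Ier2, a nuclear protein of the same early response. They were found in the count table by their Ensembl transcript identifiers and the gene symbols of GENCODE, which gave 11 rows of 27665 in all, of which 27455 carried a symbol. The rule used no measured value, but the genes were chosen with earlier results of these data known.

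The measurements were EU-seq counts, in which RNA made during a short pulse with 5-ethynyl uridine is captured and sequenced, so that they follow new transcription and not the RNA pool. The mouse embryonic stem cells (mESCs) are labelled E14, the neural progenitor cells (NPCs) were made from the mESCs with tagged RAD21, and every group, the controls included, carried a degron allele. Cells of genotype GFP-AID-Rad21 lose the cohesin subunit RAD21 on addition of auxin (IAA, 500 µM). In NPCs of this genotype there were 2 libraries each of control cells, of IAA for 1, 2 and 4 h, and of A-485 (10 µM, 1 h), which blocks the histone acetyltransferases CBP and p300. In mESCs of this genotype there were 12 control and 12 IAA 4 h libraries of an additional experiment, and 2 and 2 of an initial one. GFP-AID-Ctcf mESCs were given 500 µM IAA for 6 h, with 4 libraries a group, of which 2 were strand-specific. Whether stranded and unstranded libraries came from the same RNA is not given, so the separate samples a group may be 2. GFP-FKBP12F36V-Ctcf (Y226A/F228A) mESCs, in which CTCF carries changes in its cohesin-binding motif, were given 200 nM dTAG13 for 2 or 4 h. In bTAG-delN-CTCF/dTAG-CTCF-delC mESCs, in which each allele lacks an end of the protein, 100 nM AGB1, 100 nM dTAG13 or both were given for 2 h to deplete either product. These last 2 genotypes had 2 libraries a group. Doses are those of the labels; the column names or the study's own sample list give another dTAG13 dose for these genotypes. For some libraries the treatment text also describes triptolide, which their titles do not, and the titles were followed. Each genotype is 1 line. The study calls its replicates biological, but whether they were separate cultures is not given, so p-values measure the spread between these libraries, which may be technical. By the study's methods the mESC medium held the MEK inhibitor PD0325901, whereas NPCs grew with FGF2 and EGF. Cells given IAA without a degron were not analysed here, so exposure to IAA and loss of the tagged protein cannot be told apart.

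Libraries held between 4027449 and 21898781 counts. The cells matched their labels: the 8 mESC markers summed to between 4121 and 6157 CPM in mESC libraries and between 18.3 and 36.7 in NPC libraries. The 8 NPC markers summed to between 713 and 1791 CPM in NPC libraries and between 65.4 and 151 in mESC libraries, where Fabp7 and Olig2 had a median of 0. The neuron markers summed to between 67.8 and 110 CPM in NPC and between 13.5 and 83.3 CPM in mESC libraries, so the ranges overlapped. Median CPM in NPC and mESC libraries were 41.2 and 0 for Dcx, 14.9 and 0.421 for Snap25, 38.7 and 32.1 for Tubb3, and 1.08 and 2.53 for Neurod1. Glial markers summed to 6.93 to 12.5 CPM in NPC libraries and at most 3.45 CPM in mESC libraries. As these were bulk samples, fewer cells of a type and less RNA per cell cannot be told apart. CPM, counts scaled to a common library total, take as that total the counts in genes of up to 90 kb, which were counted over the whole gene body in every library. The 2 NPC libraries of IAA 2 h differed from each other more than other NPC replicates, with a chi-square per degree of freedom of 10.1 against 1.89 to 4.71.

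The 10 genes are short and lie on different chromosomes except for Junb and Ier2, which share chromosome 8 (build GRCm38, called mm10). Fos (ENSMUST00000021674.6) lies at chr12:85473890-85477273 on the plus strand and has 4 exons. Fosb (ENSMUST00000003640.3) lies at chr7:19302696-19310051 on the minus strand with 4 exons. Jun (ENSMUST00000107094.1) at chr4:95049034-95052222, Junb (ENSMUST00000064922.6) at chr8:84976910-84978718 and Ier2 (ENSMUST00000060427.5) at chr8:84661331-84662852, all on the minus strand, have a single exon. Egr1 (ENSMUST00000064795.5) has 2 exons over 5162 bases on the plus strand. Egr2 (ENSMUST00000145936.1) lies at chr10:67535583-67540381 with 3 exons, and Egr3 (ENSMUST00000225200.1) at chr14:70077314-70082550 with 2 exons, both on the plus strand. Atf3 (ENSMUST00000027941.13) lies at chr1:191170296-191183340 on the minus strand with 4 exons. Nr4a1 had 2 rows, and the more densely covered one is described (ENSMUST00000023779.7, chr15:101266846-101274795, plus strand, 7 exons). The longer row (ENSMUST00000228985.1) contains it and shares its reads. The counted rows span the whole gene body, exons and introns, and no row of another gene overlapped any of them.

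RefSeq promoter windows of 250 bases (GRCm38.p6) were at hand for 7 of the 10 genes: Fos, Fosb, Jun, Junb, Egr2, Atf3 and Nr4a1. Several letters known from promoters of this class were searched on both strands: the CREB site TGACGTCA, its core TGACG, the AP-1 site TGACTCA, the EGR site GCGGGGGCG, the TATA box TATAAA, and the CArG box bound by SRF. The core TGACG, which is also the start of the full CREB site, was present in 5 of the 7 windows (Fos, Fosb, Junb, Atf3 and Nr4a1) and in 17.8% of all 32851 RefSeq windows of this length. The EGR site was present in Fosb and Nr4a1 and in 2.57% of all windows, and the TATA box in Fos and in 12.4% of all windows. The full CREB site, the AP-1 site and the CArG box, present in 1.55%, 4.46% and 1.47% of all windows, were not found in any of the 7, which says only that these letters are not in these windows. The windows printed next are the 3 that hold more than 1 match, and that of Jun, which holds none and belongs to the member that fell most on A-485. Capitals mark TGACG (or its reverse complement CGTCA), the EGR site (or its reverse complement) and TATAAA, and the base after the last one shown is the RefSeq start.
Fos, chr12:85473640-85473889, plus strand: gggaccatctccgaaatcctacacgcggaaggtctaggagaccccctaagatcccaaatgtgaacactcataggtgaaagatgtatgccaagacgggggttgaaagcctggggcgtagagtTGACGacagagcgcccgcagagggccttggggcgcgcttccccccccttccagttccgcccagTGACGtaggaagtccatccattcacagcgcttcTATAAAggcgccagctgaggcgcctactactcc
Fosb, chr7:19310046-19310295, minus strand: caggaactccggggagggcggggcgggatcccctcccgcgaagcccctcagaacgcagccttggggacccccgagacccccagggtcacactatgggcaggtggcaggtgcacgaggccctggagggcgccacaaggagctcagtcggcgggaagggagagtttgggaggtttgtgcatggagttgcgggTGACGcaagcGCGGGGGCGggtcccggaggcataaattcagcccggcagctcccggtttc
Nr4a1, chr15:101266596-101266845, plus strand: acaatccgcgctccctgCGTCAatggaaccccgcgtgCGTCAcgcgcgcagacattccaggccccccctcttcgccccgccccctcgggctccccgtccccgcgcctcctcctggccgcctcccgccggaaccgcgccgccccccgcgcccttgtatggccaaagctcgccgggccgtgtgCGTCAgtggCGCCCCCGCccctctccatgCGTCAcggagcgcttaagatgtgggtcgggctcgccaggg
Jun, chr4:95052223-95052472, minus strand: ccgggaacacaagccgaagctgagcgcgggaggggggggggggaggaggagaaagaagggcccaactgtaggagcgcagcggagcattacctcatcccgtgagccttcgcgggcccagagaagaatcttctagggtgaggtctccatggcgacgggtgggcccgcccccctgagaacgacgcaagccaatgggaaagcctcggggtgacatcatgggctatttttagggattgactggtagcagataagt

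In untreated cells most of these genes were far more active in NPCs than in mESCs. Egr1, a well-known target of ERK signalling, was at 838 and 759 CPM in the 2 NPC controls, against 0.515 to 1.14 CPM (median 0.783) in the 12 mESC controls. Jun was at 152 and 147 CPM in NPCs and between 2.37 and 4.28 CPM in mESCs. Fos was at 70.5 and 67.2 CPM in NPCs and between 1.22 and 3.01 CPM in mESCs. For these 3 genes the lowest NPC library thus stood well above the highest mESC library. Egr3 (21.5 and 22.2 CPM), Fosb (22.7 and 20.8 CPM) and Egr2 (6.86 and 8.16 CPM) were also clearly present in NPCs. In mESC controls the medians were 0.593 CPM for Fosb, 0.0795 CPM for Egr2 and 0 for Egr3.

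The remaining 4 genes were transcribed in both cell types at levels much closer to each other. Ier2 was at 115 and 99.4 CPM in NPCs and between 63.1 and 85.1 CPM in mESCs. Junb was at 43.5 and 38.7 CPM in NPCs and between 16.9 and 23.9 CPM in mESCs. Nr4a1 was at 22.4 and 26.7 CPM in NPCs and between 15.3 and 20.5 CPM in mESCs. With the mESC controls of the additional experiment the groups did not overlap for these 3 genes either, but the distance was small. Over the 22 mESC controls of all genotypes, Nr4a1 ran from 11.1 to 33.2 CPM, which takes in both NPC controls. Junb ran there from 3.97 to 24.7 CPM and Ier2 from 34.9 to 85.1 CPM. How many of all genes did not overlap was not computed. Atf3 was at 6.54 and 7.24 CPM in NPCs and between 4.52 and 6.99 CPM in mESCs, and here the groups overlapped.

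Of the 10 genes, 6 had enough counts in both cell types to be compared. Of these, 5 were called higher in NPC controls than in the mESC controls of the additional experiment. In this comparison 89.8% of all 17290 genes tested were called and 45.2% were called higher in NPCs, so most genes differ. The difference on the log2 scale was 5.43 ± 0.07 for Jun (SE, edgeR quasi-likelihood test, adjusted p = 3.35e-50) and 4.93 ± 0.10 for Fos. It was 0.83 ± 0.08 for Junb, 0.45 ± 0.06 for Ier2 and 0.31 ± 0.08 for Nr4a1, and for Atf3 it was 0.13 with a 95% interval of -0.17 to 0.42 (adjusted p = 0.416). The Nr4a1 call was lost without the second NPC control (0.17, adjusted p = 0.160). Egr1, Egr2, Egr3 and Fosb passed the filter on low counts only through the NPC libraries where they are high, so their differences are a description: 9.78 ± 0.05 for Egr1, 8.72 ± 0.24 for Egr3, 5.83 ± 0.30 for Egr2 and 4.85 ± 0.17 for Fosb. Those of Egr2 and Egr3 rest on a handful of mESC reads. Cell type, medium and batch cannot be told apart here. From a list of 41 other immediate early genes, Nr4a3, a close relative of Nr4a1, was higher by 5.80 on the log2 scale and the ERK target Phlda1 by 5.42, while the kinase genes Sik1 and Sgk1 were lower (-1.05 and -2.43). Among 25 genes of signalling and upstream regulators, the receptor genes Egfr (5.46) and Fgfr3 (3.67) were higher in NPCs.

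Within NPCs, 1 h of RAD21 loss moved 5 of the 10 genes past the test, where 16.9% of all 15860 genes tested were called. Fos and Egr1 fell, and Junb, Egr3 and Atf3 rose. After 2 h, 4 of the 10 were called, all lower (Fos, Fosb, Egr1 and Nr4a1), with 15.4% of all 15995 genes called. After 4 h, 6 of the 10 were called (Egr1 lower, and Fosb, Jun, Junb, Egr3 and Atf3 higher), with 39.9% of all 16148 genes called. The 3 times and A-485 were compared with the same 2 control libraries, so these counts are not independent of each other. The median log2 fold change over the 10 genes was -0.06, -0.03 and 0.16 at 1, 2 and 4 h, and over all genes tested it was -0.03, -0.04 and -0.02.

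Among the AP-1 subunits, Fos fell at 1 and 2 h and was not called at 4 h. It was at 70.5 and 67.2 CPM without IAA. With IAA the libraries read 36.3 and 44.8 CPM after 1 h, 47.6 and 50.3 CPM after 2 h and 69.3 and 73.3 CPM after 4 h. Both libraries at 1 h and at 2 h lay below both controls, and those at 4 h did not. The log2 fold change was -0.76 ± 0.08 at 1 h (adjusted p = 5.92e-07), which is 1.69-fold lower, and -0.51 ± 0.08 at 2 h (adjusted p = 0.00138). At 4 h it was 0.01 with a 95% interval of -0.10 to 0.13.

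Fosb, a second FOS family subunit, passed through a deeper minimum. Its libraries were at 22.7 and 20.8 CPM without IAA. In IAA libraries it was at 9.41 and 20.9 CPM after 1 h, 7.00 and 7.33 CPM after 2 h and 38.4 and 24.3 CPM after 4 h. At 1 h the replicates disagreed, with 1 at the control level, and the fall of 0.50 on the log2 scale did not pass (adjusted p = 0.0901). It was -1.21 (adjusted p = 1.63e-07) without the second IAA 1 h library, and was also called without the second control and with the replicate number as a block. At 2 h Fosb fell by 1.63 ± 0.15 on the log2 scale, 3.09-fold lower, the largest change of any of the 10 genes at any time of RAD21 loss (adjusted p = 4.02e-05). At 4 h it was 0.50 ± 0.13 higher (adjusted p = 0.0027), a rise that rests on the first IAA 4 h library: without it the value was 0.12 (adjusted p = 0.518), and DESeq2 did not call it either (adjusted p = 0.335).

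Jun, the main partner of FOS proteins, was at 152 and 147 CPM without IAA. Under IAA its level was 143 and 150 CPM after 1 h, 161 and 136 CPM after 2 h and 210 and 202 CPM after 4 h. The groups overlapped at 1 and 2 h, and at 4 h both libraries lay above both controls, a rise of 0.43 ± 0.04 on the log2 scale (adjusted p = 1.27e-09). Junb, often a brake on JUN activity, was at 43.5 and 38.7 CPM without IAA. IAA libraries were at 51.6 and 72.0 CPM after 1 h, 39.1 and 47.7 CPM after 2 h and 52.5 and 52.0 CPM after 4 h. It was higher by 0.59 ± 0.11 at 1 h (adjusted p = 0.000414) and by 0.31 ± 0.07 at 4 h (adjusted p = 0.00102), but not at 2 h (0.05, adjusted p = 0.824). DESeq2 did not call the 1 h value (adjusted p = 0.149).

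Atf3 was at 6.54 and 7.24 CPM without IAA. Once IAA was added, it stood at 11.01 and 14.2 CPM after 1 h, 12.5 and 7.87 CPM after 2 h and 13.6 and 13.9 CPM after 4 h. All 6 IAA libraries lay above both controls. The rise was 0.87 ± 0.17 at 1 h (adjusted p = 0.000903) and 0.95 ± 0.15 at 4 h (adjusted p = 6.54e-06), that is 1.83-fold and 1.94-fold. At 2 h, where the replicates lay furthest apart, it was 0.58 ± 0.22 (adjusted p = 0.105). It was called at 2 h without the second IAA 2 h library (0.83, adjusted p = 0.00124), with genes of any count (adjusted p = 0.0156) and with the replicate block (0.55, adjusted p = 0.0261).

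The EGR genes split. Egr1 was at 838 and 759 CPM without IAA. Upon IAA it was measured at 402 and 560 CPM after 1 h, 553 and 609 CPM after 2 h and 527 and 586 CPM after 4 h, so that every IAA library lay below both controls. It fell by 0.73 ± 0.09 on the log2 scale at 1 h (adjusted p = 2.45e-06), by 0.47 ± 0.08 at 2 h (adjusted p = 0.00249) and by 0.56 ± 0.04 at 4 h (adjusted p = 7.04e-12). The 2 h call was lost without the first control (-0.40, adjusted p = 0.0886). Egr1 was the only one of the 10 genes called in the same direction at all 3 times.

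Egr3, itself a target of EGR factors in other cells, went the opposite way. It was at 21.5 and 22.2 CPM without IAA. The IAA libraries held 24.7 and 31.1 CPM after 1 h, 31.2 and 25.6 CPM after 2 h and 43.4 and 42.9 CPM after 4 h. All IAA libraries lay above both controls, and by 4 h the level was 1.92-fold higher (0.94 ± 0.09 on the log2 scale, adjusted p = 1.52e-10). The smaller values at 1 h (0.35 ± 0.11, adjusted p = 0.0317) and 2 h (0.38 ± 0.12, adjusted p = 0.0609) lay near the threshold, and the 1 h call was lost without either control, without the second IAA 1 h library (0.17, adjusted p = 0.413) and with DESeq2. The 2 h value was called with genes of any count (adjusted p = 0.0182) and with the replicate block (0.37, adjusted p = 0.0148). Egr2 stayed between 6.13 and 9.15 CPM in all 8 of these libraries and was called at no time (log2 fold changes of 0.22, 0.01 and -0.04 in order of time).

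Nr4a1 was at 22.4 and 26.7 CPM without IAA. Its IAA libraries stood at 23.6 and 22.5 CPM after 1 h, 17.0 and 19.7 CPM after 2 h and 21.7 and 21.2 CPM after 4 h. It was lower by 0.46 ± 0.14 at 2 h, with an adjusted p of 0.0495. This value is marginal: the longer row gave -0.33 (adjusted p = 0.0749), and the call was lost without the second control (-0.32, adjusted p = 0.425), without the first IAA 2 h library, without centring and with DESeq2. Ier2 was at 115 and 99.4 CPM in controls and between 91.1 and 107 CPM in the 6 IAA libraries, and did not pass at any time (-0.15, -0.04 and -0.04). Its 1 h value became -0.26 (adjusted p = 0.00798) without the second control.

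**Figure D1:**
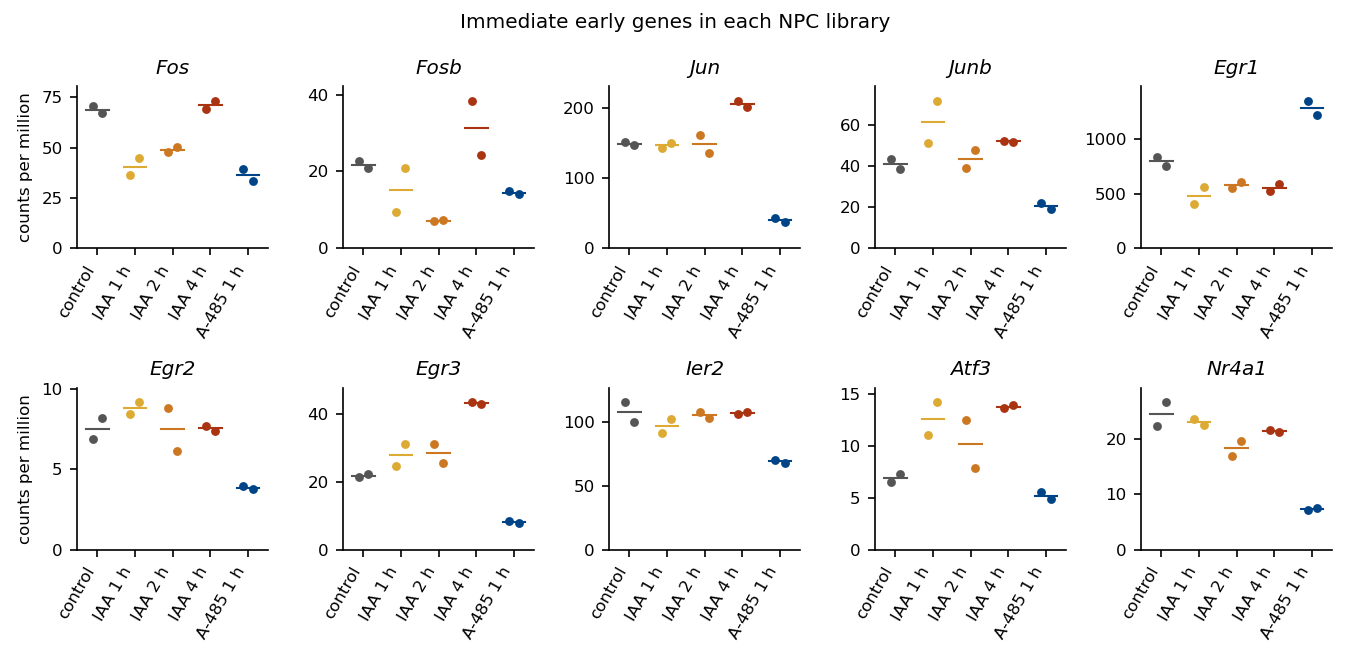
EU-seq level (CPM) of each gene in each of the 10 NPC libraries (linear axis from 0, own scale per gene), with 1 point per library and a line at the mean of the 2. Fosb has its lowest points at IAA 2 h (7.00 and 7.33 CPM), Egr3 its highest at IAA 4 h (43.4 and 42.9 CPM), and Egr1 is the only gene whose A-485 libraries lie above the controls.

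**Figure D2:**
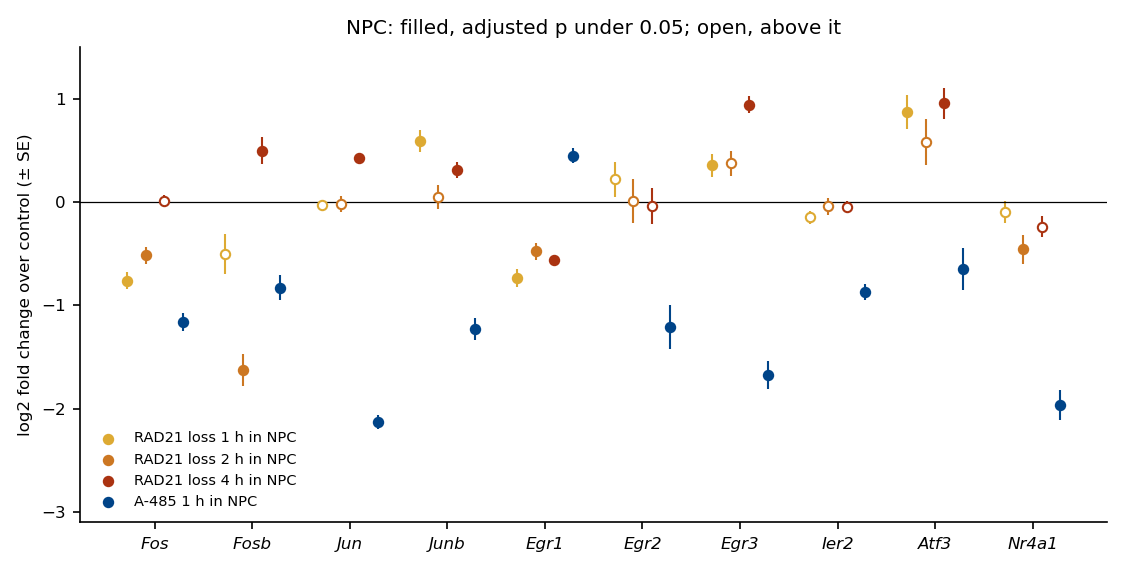
Log2 fold change over the shared NPC controls, with its standard error, for 1, 2 and 4 h of RAD21 loss and 1 h of A-485; filled points passed an adjusted p of 0.05. Fosb is at -1.63 at 2 h and 0.50 at 4 h, and Jun has the lowest A-485 value, -2.13.

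The IAA time points were also tested against each other without the controls, in 1 fit over all 10 NPC libraries. From 1 to 2 h only Junb of the 10 genes was called (-0.54 ± 0.13, adjusted p = 0.0381), where 2.08% of 13582 genes were called. This call was lost when any of 6 libraries was left out, and the value moved to -0.28 without the second IAA 1 h library. From 2 to 4 h, 4 of the 10 genes were called, all higher, where 2.72% of all genes were called and 1.12% were called higher. They were Fosb (2.11 ± 0.29, adjusted p = 0.000719), which is 4.30-fold, Egr3 (0.55 ± 0.11, adjusted p = 0.0153), Fos (0.51 ± 0.09, adjusted p = 0.0073) and Jun (0.43 ± 0.07, adjusted p = 0.00337). Fosb was called in every leave-out fit, whereas without the first IAA 4 h library Fosb alone was called, Fos standing at an adjusted p of 0.0696 and Jun at 0.0771. Without the second IAA 4 h library Fos (0.127) and Egr3 (0.135) were not called, nor was Egr3 (0.0633) without the second IAA 2 h library. In the IAA 1 h group, 9 of the 10 genes were higher in the second library than in the first, by a median of 0.32 on the log2 scale regardless of sign, compared with 0.15 between the controls.

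Other genes of the same pathways moved in both directions during RAD21 loss in NPCs. Of the 38 other immediate early genes tested, 10 were higher and 8 lower at 1 h, 3 and 10 at 2 h, and 15 and 14 at 4 h. Of all genes tested 16.9%, 15.4% and 39.9% were called at these times. Errfi1, a feedback inhibitor of EGF receptor signalling, fell by 0.74, 1.53 and 1.70 on the log2 scale at 1, 2 and 4 h. Myc fell by 0.40, 0.97 and 1.23. The circadian repressor gene Bhlhe40 rose by 0.68, 0.41 and 0.91, and Arc, a neuronal activity gene, rose by 1.11 at 4 h. Of 10 AP-1 partners and corepressors tested, 3 were higher and 1 lower at 1 h, 2 and 2 at 2 h, and 3 and 3 at 4 h. Fosl2, a FOS family gene, rose by 1.37 at 1 h and 0.42 at 2 h and was at -0.06 at 4 h (adjusted p = 0.426). Nab2, a corepressor of EGR factors, rose by 0.38, 0.32 and 0.48. Atf7 fell by 0.18, 0.25 and 0.38, and the nuclear receptor gene Rxra fell by 0.30 at 2 h and by 0.34 at 4 h. Of 25 signalling genes tested, 8, 7 and 11 fell and 0, 0 and 4 rose. Egfr, which encodes the receptor for the EGF in the medium, fell by 0.42 at 1 h and by 2.40 at 4 h, when it had the largest fall of that list. At 1 h counts covered at most the first 90 kb of a gene, and at 4 h the whole body. For genes longer than that, values at the 2 times are on unlike measures. Srf and its cofactor gene Mrtfa fell at 1 h, by 0.51 and 0.54.

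IAA itself can act on the aryl hydrocarbon receptor, and targets of this receptor were called in the same comparisons. All 4 tested of a list of 5 such targets rose at 1, 2 and 4 h in NPCs, and their summed level was between 167 and 179 CPM in controls. It lay between 812 and 827 CPM after 1 h, between 435 and 496 CPM after 2 h and between 373 and 385 CPM after 4 h. Cyp1a1, the classical target, rose by 6.56 on the log2 scale at 1 h. Of cell type markers at 4 h, 5 of 8 NPC markers tested were called (4 higher, 1 lower), 5 of 5 neuron markers (2 higher, 3 lower), 3 of 5 mESC markers (lower) and 1 of 3 mesoderm and endoderm markers (lower), and no call fell on the 3 glial markers. Among all genes tested at 4 h 39.9% were called. The neuron markers summed to between 98.0 and 102 CPM at 4 h and between 99.3 and 101 CPM in controls. The part of these responses in the changes of the immediate early genes was not tested.

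A-485 lowered nearly the whole set within 1 h. All 10 genes were called in NPCs, 9 of them lower, where 62.6% of all 16009 genes tested were called and 41.1% were called lower. The median over the 10 genes was -1.18 on the log2 scale, against -0.11 over all genes. These values are relative to the median of expressed genes, which the centring had moved by 0.12 on the log2 scale. CPM are not scaled in this way and read higher with A-485 than the fitted values. Rad21 and Ctcf, for instance, summed to between 659 and 677 CPM with A-485 and between 565 and 581 CPM in controls. Their fitted log2 fold changes were -0.01 and -0.03. The NPC markers summed to between 713 and 910 CPM with A-485 and between 1440 and 1791 CPM in the other NPC groups, and 7 of 7 tested were lower. The neuron markers summed to between 67.8 and 72.9 CPM with A-485, and 4 of 4 tested were lower, as were 3 of 3 mesoderm and endoderm markers, 4 of 5 mESC markers and 1 of 3 glial markers. The part of these in the result was not tested.

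Jun fell most, from 152 and 147 CPM to 42.7 and 38.1 CPM, a log2 fold change of -2.13 ± 0.07 (adjusted p = 2.41e-13) or 4.38-fold. Nr4a1 fell from 22.4 and 26.7 to 7.19 and 7.62 CPM (-1.97 ± 0.15, adjusted p = 5.80e-09), and its longer row gave -2.04. Egr3 fell from 21.5 and 22.2 to 8.36 and 7.84 CPM (-1.67 ± 0.14, adjusted p = 1.94e-08). With 2 libraries a group, the CPM of treated and control libraries did not overlap in any of the 10 genes, of which 9 lay below the controls. The share of all genes without overlap was not computed. Junb (-1.23 ± 0.10), Egr2 (-1.21 ± 0.21), Fos (-1.16 ± 0.08), Ier2 (-0.87 ± 0.08) and Fosb (-0.83 ± 0.12) followed, and Atf3 fell least (-0.65 ± 0.20, adjusted p = 0.00993). The Atf3 call was lost without the second control (adjusted p = 0.0909) and with DESeq2 (adjusted p = 0.0770).

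Egr1 was the exception. It rose from 838 and 759 CPM to 1353 and 1219 CPM, with both treated libraries above both controls, a log2 fold change of 0.45 ± 0.07 (adjusted p = 4.83e-05). Its direction was the same in every alternative fit. Among the other immediate early genes none rose on A-485: 36 of 38 tested fell, with a median of -2.15, led by the prostaglandin synthase gene Ptgs2 (-5.85) and Myc (-3.88). Egfr fell by 4.31 and Fosl2 by 2.58.

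Set directly against 1 h of IAA, without the controls, 1 h of A-485 differed for 9 of the 10 genes, where 61.4% of 13582 genes were called. Egr1 was higher with A-485 (1.23 ± 0.11, adjusted p = 7.74e-08), and 8 were lower, from Jun (-2.05 ± 0.08) and Egr3 (-1.97 ± 0.14) to Fos (-0.35 ± 0.10, adjusted p = 0.00662). Fosb did not differ past the threshold (-0.27, 95% interval -0.79 to 0.25). The Fos call was lost without the second IAA 1 h library (-0.19, adjusted p = 0.174) and without the second A-485 library.

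In mESCs, where the levels are low, only some members could be tested at all. Over all 50 mESC libraries the counts of Fosb reached at most 17, of Egr1 14, of Egr2 8 and of Egr3 4, and Egr2 was at 0 in 23 and Egr3 in 31 libraries. These 4 genes passed the filter on low counts in none of the mESC comparisons and were not tested, so no change in them was detectable at this depth. Fos was tested in 4 of the 8.

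In the additional experiment with 12 libraries a group, 4 h of RAD21 loss changed 5 of the 6 genes tested, where 58.7% of all 15732 genes were called. Junb fell from a median of 21.8 CPM (lowest 16.9, highest 23.9) to 14.6 CPM (lowest 12.3, highest 17.2). In 11 of the 12 IAA libraries it was below every control, and the log2 fold change was -0.51 ± 0.06 (adjusted p = 4.09e-11). Ier2 fell from a median of 71.8 CPM (63.1 to 85.1) to 57.7 CPM (52.0 to 74.9), with 9 of 12 IAA libraries below every control (-0.30 ± 0.04, adjusted p = 3.58e-08). Atf3 rose from a median of 5.65 CPM (4.52 to 6.99) to 7.71 CPM (5.22 to 10.8), with 10 of 12 IAA libraries above every control (0.42 ± 0.08, adjusted p = 2.85e-05).

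The other changes were smaller and the groups overlapped more. Nr4a1 went from a median of 18.1 CPM (15.3 to 20.5) to 16.0 CPM (12.02 to 19.4), lower than the control median in 11 of 12 libraries (-0.17 ± 0.05, adjusted p = 0.00535). Jun went from 3.06 CPM (2.37 to 4.28) to 3.66 CPM (2.85 to 6.02), above the control median in 11 of 12 (0.28 ± 0.11, adjusted p = 0.0321). Jun counts were low, and its call was lost when any of 5 single libraries was left out, with the lowest value, 0.20 (adjusted p = 0.109), without IAA replicate 3. Fos was at a median of 2.20 CPM in controls and 1.92 CPM after IAA, a log2 fold change of -0.03 with a 95% interval of -0.33 to 0.27. Batches are labelled in this experiment, CC52 with 1 library a group and CC53 with 11. Within CC53 alone the values were -0.52 for Junb, -0.29 for Ier2, 0.38 for Atf3, -0.15 for Nr4a1 and 0.28 for Jun, all called.

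**Figure D3:**
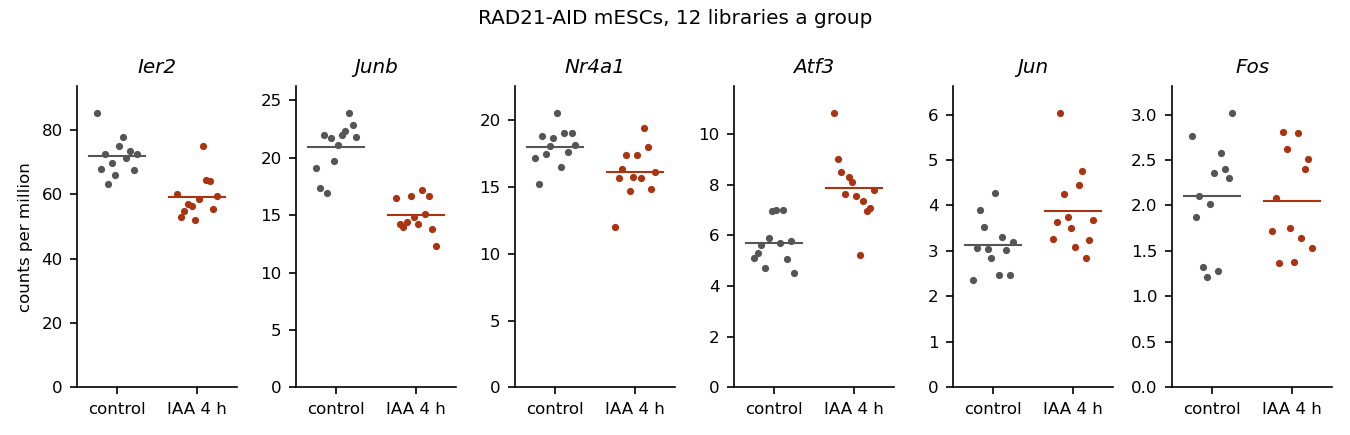
EU-seq level (CPM, linear axis from 0, own scale per gene) of the 6 genes tested in GFP-AID-Rad21 mESCs of the additional experiment, 1 point per library, 12 control and 12 IAA 4 h libraries, with a line at the mean. The Junb points move from a median of 21.8 to 14.6 CPM with little overlap, whereas the Fos groups overlap throughout.

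In the initial experiment, with 2 libraries a group, 0 of 5 genes tested were called by edgeR, where 8.64% of all 15177 genes were called. Unadjusted, only Ier2 was under 0.05 (p = 0.0287 in edgeR). DESeq2 called 0 as well. Junb lay between 6.28 and 6.92 CPM in controls and between 6.67 and 6.77 CPM after IAA. Atf3 lay between 5.79 and 6.47 CPM in controls and between 6.24 and 6.36 CPM after IAA. For Nr4a1 the ranges were 11.1 to 11.8 CPM and 7.54 to 10.8 CPM. Ier2 was at 41.1 and 34.9 CPM in controls and 40.0 and 50.8 after IAA (0.25, 95% interval 0.03 to 0.47), and Jun at 3.09 and 2.46 and then 4.35 and 4.33 CPM (0.63, -0.02 to 1.29). Ier2 therefore leaned the opposite way from the additional experiment, and the difference between the experiments passed for this gene (-0.57 ± 0.15 for additional minus initial, edgeR adjusted p = 0.0121). It was the only one of 6 genes called there, where 5.54% of all 16000 genes were called, and the call was lost without the second library of either initial group (-0.44 and -0.38). Both experiments used the same labelled genotype, dose and time, and experiment and handling cannot be told apart.

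Of the other immediate early genes, 35 were tested in the additional experiment, of which 10 were higher and 18 lower after IAA. Among all genes tested there 58.7% were called. Sik1 fell by 1.48 and Trib1, a pseudokinase gene, by 1.26 on the log2 scale. The transcription factor gene Cebpb rose by 0.95 and the small GTPase gene Rhob by 0.81. Fosl2 fell by 1.34 and Egfr by 0.84. Of the receptor targets of IAA, 3 rose and 1 fell in both mESC experiments. Cyp1a1 rose by 0.87 in the additional and by 3.76 in the initial one, and the part of this in the results was not tested.

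The response to 4 h of RAD21 loss was compared between NPCs and the mESCs of the additional experiment in 1 fit with an interaction term. Here 3 of the 10 genes differed, all in the direction of NPC over mESC, where 33.4% of all 17538 genes tested were called. For Junb the difference of the log2 fold changes was 0.86 ± 0.11 (adjusted p = 5.56e-09), as it rose in NPCs and fell in these mESCs. For Atf3 it was 0.57 ± 0.19 (adjusted p = 0.0154) and for Ier2 0.29 ± 0.10 (adjusted p = 0.0151). Atf3 rose in NPCs and in these mESCs. In the initial mESC experiment, which is not in this fit, neither Junb nor Atf3 was called. The Atf3 call was lost in 3 of the 4 fits that left out 1 NPC library, and the Ier2 call in 3 of the 4 and with DESeq2, whereas Junb was called in all of them. The remaining genes were not called, with 95% intervals from -0.07 to 0.44 for Jun and from -0.27 to 0.43 for Fos. Fosb, Egr1, Egr2 and Egr3 passed the filter of this fit only through their NPC counts.

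In the CTCF depletions few of these genes were called, as were few of all genes tested. With so few members tested, whether they moved less or more than other genes cannot be told. After 6 h in GFP-AID-Ctcf mESCs, 0 of 6 genes tested were called by edgeR, where 3.38% of all 16237 genes were called. Unadjusted, Jun alone was under 0.05 (p = 0.00233). Jun was at 2.31 and 3.17 CPM in unstranded controls and 5.54 and 5.03 after IAA, and at 2.47 and 2.95 CPM in stranded controls and 5.23 and 4.60 after IAA. All 4 IAA libraries lay above all 4 controls, and the log2 fold change was 0.88 ± 0.20 (adjusted p = 0.0606). In these data the replicate numbers pair the libraries, which the main fit given so far did not use. With the number as a block Jun was called (0.87, adjusted p = 0.0061). That fit called 4465 of all 16237 genes tested, in place of 548, so a call in it is much more common. DESeq2 called Jun too (adjusted p = 0.0224), and 1117 of all genes. Within library types the value was 0.95 in unstranded libraries (adjusted p = 0.0901) and 0.83 in stranded ones (adjusted p = 1.00), where no gene was called. Fos was higher by 0.79, with a standard error of 0.42 (adjusted p = 0.414). The libraries of stranded control cells differed from each other by a chi-square per degree of freedom of 38.2, the most of any replicate pair. Of the 4 receptor targets of IAA tested, 0 were called here by edgeR.

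In mESCs with Y226A/F228A CTCF, 1 of 6 genes was called after 2 h of dTAG13, where 3.97% of 14009 genes were called, and 0 of 6 after 4 h, where 4.94% of 14280 were called by edgeR. The one gene was Fos, which passed the filter on low counts only through its treated libraries, so that its value is a description. It had counts of 3 and 24 in controls, 17 and 49 at 2 h, and 31 and 32 at 4 h. These are 1.02 and 3.12 CPM in controls, 5.38 and 7.35 at 2 h, and 5.94 and 4.60 at 4 h, so that all 4 treated libraries lay above both controls. The log2 fold change was 1.42 ± 0.45 at 2 h (adjusted p = 0.0427) and 1.08 ± 0.44 at 4 h (adjusted p = 0.182, unadjusted p = 0.0177 in edgeR). The call at 2 h did not hold in any fit that left out the first control (1.05, adjusted p = 0.448) or a treated library (adjusted p = 0.0617 without the first, and under the filter without the second), nor with genes of any count, with the replicate block or with DESeq2, which gave no adjusted p for it. At 4 h, DESeq2 also called 0 of the 6.

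With the N-terminal deletion form depleted by AGB1, 0 of 5 genes tested were called by edgeR, where 2.14% of 13619 genes were called. Unadjusted, Nr4a1 alone was under 0.05 (p = 0.0344). With the C-terminal deletion form depleted by dTAG13, 0 of 5 were called by edgeR, where 0.0808% of 13618 genes were called, and none was under 0.05 unadjusted. DESeq2 called 0 in both. With both forms depleted, 1 of 5 was called, where 6.67% of 13753 genes were called. This was Nr4a1, at 11.9 and 17.6 CPM in controls, 10.7 and 11.4 with AGB1, 11.5 and 18.03 with dTAG13, and 9.31 and 8.98 with both. Its log2 fold changes were -0.42 ± 0.19, 0.03 ± 0.19 and -0.69 ± 0.20 (adjusted p = 0.0224), and the longer row gave -0.71 for both agents. The 3 treatments share their 2 controls, and the controls were far apart: without the second one the value was -0.39 (adjusted p = 0.473), and without either treated library the adjusted p was 0.0574 and 0.0519. DESeq2 did not call it (adjusted p = 0.312).

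**Figure D4:**
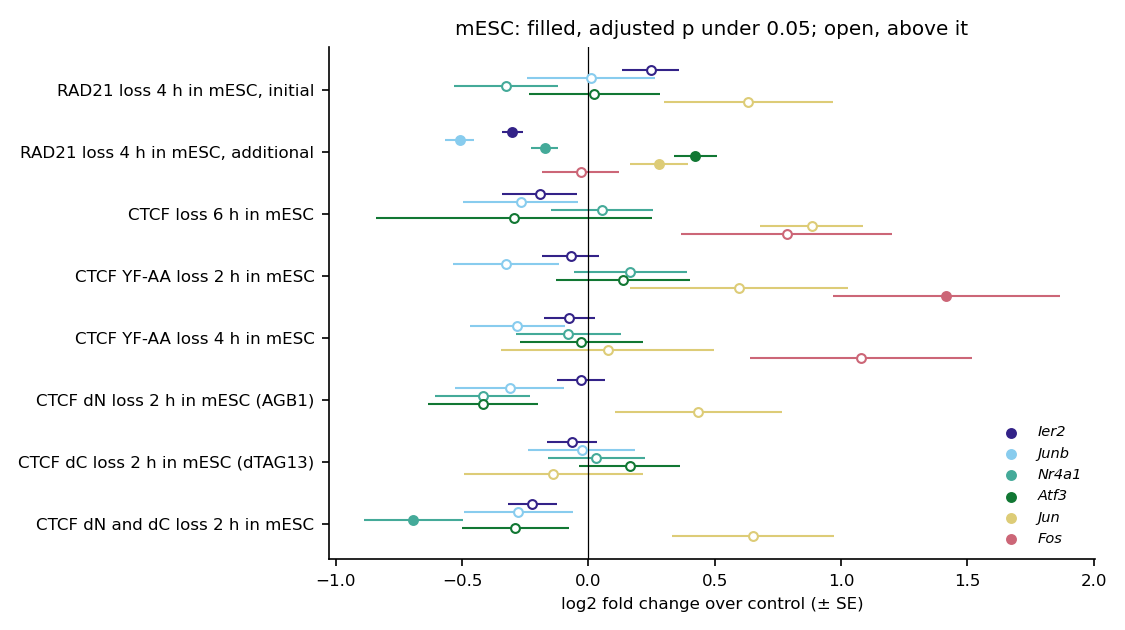
Log2 fold change over control, with its standard error, for each gene tested in each mESC depletion. Points that passed an adjusted p of 0.05 are filled, and the CTCF 6 h values are from the fit without pairing. Filled points are mostly those of RAD21 loss in the additional experiment (Junb -0.51, Ier2 -0.30, Nr4a1 -0.17, Jun 0.28, Atf3 0.42), with Fos after 2 h in CTCF YF-AA cells (1.42) and Nr4a1 with both deletion forms depleted (-0.69).

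Whether the genes vary together in untreated mESCs was tested against Fos. Over the 12 control libraries, none (0 of 9) of the relations of the log2 CPM of Fos with another member passed after adjustment. The highest Pearson r was 0.36 for Ier2 (rho = 0.43, permutation p = 0.246 and 0.169), followed by Nr4a1 (r = 0.35). Without the 2 libraries farthest from the median of Fos, r was 0.74 for Ier2 and 0.65 for Junb, and within batch CC53 it was 0.19 and 0.40. Egr2, with a median count of 1, had r = -0.49 and rho = -0.64 (permutation p = 0.108 and 0.0299, adjusted p = 0.675 and 0.270). The libraries share handling, and Fos counts were low, so the precision of these values is limited.

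Genes whose level followed that of Fos most closely were taken over all genes with a mean count of at least 100. In the 12 mESC controls these were F2r (r = 0.88), Prtg (0.85), Mib2 (0.82), Serinc3 (0.82) and Gas6 (0.81), the highest of 11906 genes. In the 10 NPC libraries they were Shoc2 (0.94), an activator of RAS signalling, Mmrn2 (0.92), Mcf2l (0.91), Lncenc1 (0.91) and Rgs12 (0.91), the highest of 10631. The NPC libraries belong to 5 treatment groups, and shared treatment and depth enter these values, which are given as a description.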

How the data were processed

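The deposited values are read counts per transcript, made by the authors from EU-seq libraries by trimming with cutadapt, alignment to mm10 with BWA, removal of low-quality, rRNA and tRNA alignments with SAMtools (version 1.4) and bedtools, and counting with HTSeq over the gene bodies of representative transcripts. In the NPC comparisons of IAA at 1 h and of A-485 with controls, counts were limited to the first 90 kb of long genes. The use of strand in counting is not given in the sources used here. Gene symbols came from GENCODE.

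From these counts, differences were tested with edgeR 4.0.16 (R 4.3.3; quasi-likelihood test, TMM scaling, mean count over 20 in at least 1 group), after centring treatment fold changes on the median of expressed genes (mean TPM over 15). P-values were Benjamini-Hochberg adjusted over all genes tested, with 0.05 as the threshold; in the CTCF 6 h comparison the library type was a covariate. NPC contrasts between treatments, comparisons between experiments and the control contrast used TMM without centring. Intervals are 95%. DESeq2 1.42.0 was an alternative. Scripts were tested on simulated data.

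The genes and gene lists were chosen with earlier results of these data known. From each list and comparison, at most the 2 called genes with the largest rise and the 2 with the largest fall were named, some with values of the same gene at other times. No pair of replicates held identical values over 151 pairs. Same-numbered CTCF-AID libraries deviated together (r of 0.467 to 0.773 over 4 pairs), so the number can be read as a pairing there, from the data. The main fit of that comparison did not use this pairing, and the replicate block did.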

Additional observations from a re-analysis of the deposited data

Results flagged for a closer look

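Effects of the same treatment that differed between groups in a test of the difference itself were set apart. The response to 4 h of RAD21 loss differed between NPCs and mESCs of the additional experiment for Junb (0.86 on the log2 scale), Ier2 (0.29) and Atf3 (0.57), all higher in NPCs. These were 3 of the 10 genes, where 33.4% of all genes were called, and the Atf3 and Ier2 calls were each lost in 3 of the 4 fits that left out 1 NPC library. Between the additional and the initial mESC experiment it differed for Ier2 (-0.57, additional minus initial), a call lost without the second library of either initial group.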

How the results depend on the processing

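No value that had been called changed direction under an alternative. The number of the 10 genes called moved by over 1.5 times in these cases. With DESeq2 it was 3 in place of 5 after 1 h of RAD21 loss in NPCs, 1 in place of 0 for CTCF loss of 6 h, 0 in place of 1 for 2 h in YF-AA cells, and 0 in place of 1 with both deletion forms depleted. With genes of any count it was 0 for YF-AA at 2 h and 3 in place of 1 for 2 h against 1 h of IAA. With the replicate block it was 1 for CTCF loss of 6 h and 0 for YF-AA at 2 h. Leaving out 1 library at a time, the number called ranged, for RAD21 loss in NPCs, between 4 and 6 at the first time, 3 and 6 at the second and 5 and 7 at the last. It was 9 to 10 for A-485, 0 to 1 and 4 to 5 in the initial and additional mESC experiments, 0 to 1 for YF-AA at 2 h, 0 to 1 with both deletion forms depleted, 0 to 2 for 2 h against 1 h, 1 to 4 for 4 h against 2 h, 8 to 10 for A-485 against IAA, 1 to 2 for NPC against mESC, 0 to 1 for additional against initial, and 8 to 9 for the controls, with the 4 genes included that passed the filter only through NPCs. The cause of these moves was not tested.

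Over all genes, DESeq2 called 1145 in place of 2680 at 1 h and 4125 in place of 6447 at 4 h in NPCs, 512 in place of 1311 in the initial mESC experiment, 1117 in place of 548 for CTCF, 238 in place of 556 and 330 in place of 706 for YF-AA at 2 and 4 h, 152 in place of 292 with AGB1 and 363 in place of 917 with both agents. The replicate block gave 3750 in place of 2466 at 2 h in NPCs, 854 in the initial experiment, 4465 for CTCF and 25 in place of 11 with dTAG13. Genes of any count gave 17 with dTAG13, 543 in place of 282 for 2 h against 1 h, and 753 in place of 370 for 4 h against 2 h. Leaving out 1 library, the count for RAD21 loss in NPCs fell to 1706 at 1 h without the first control, and at 2 h it was 1265 and 1473 without the first and second control and 4936 and 3728 without the first and second IAA library. It was 2049 in the initial experiment without the first control, and 431 and 350 without the first and second IAA library. For CTCF it was 194 and 221 without the first and second unstranded control, 219 without the second unstranded IAA library, about as low without the first, and 853 without the second stranded IAA library. For YF-AA it was 360 at 2 h without the first treated library, and 444 and 446 at 4 h without the first and second. With both agents it was 569 and 584 without the first and second control and 601 without the first treated library. For 2 h against 1 h it was 158 and 128 without the first and second 1 h library and 689 without the first 2 h library. For 4 h against 2 h it was 243 and 244 without the first and second control, 808 without the first 2 h library, and 64 and 59 without the first and second 4 h library. For additional against initial, in place of 887, it was 462 and 326 without the second control and the second IAA library of the initial one. Low counts limit Fos and Jun in mESCs.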
